A study of Homo sapiens with 4 samples.

Results

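Small nucleolar RNA (snoRNA) host genes were examined in *CDYL*-sh Ishikawa cells. They comprised every gene with a current symbol of SNHG and a number, together with *GAS5*, *EPB41L4A-AS1* and *ZFAS1*, matched by Ensembl identifier. This gave 31 genes among the 58522 listed, and 26 of them had enough reads to be tested. Ishikawa is an established human line of endometrial adenocarcinoma cells. One group received a short hairpin RNA (shRNA) against *CDYL*, the gene of a chromodomain corepressor of transcription, and the other received a negative control shRNA. Each group had 2 RNA-seq libraries, and the purpose was to see which transcripts change when *CDYL* is silenced. The *CDYL*-sh libraries are named sh1 and sh2 in the labels, which do not say whether these are different hairpins or replicates of 1 hairpin, or whether the cultures were separate. The study lists different hairpins under the names sh1 and sh2, among others, but does not say which were sequenced. The p-values therefore measure only the spread between these libraries, which may be technical or may include a difference between hairpins.

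Box C/D snoRNAs guide ribose methylation of ribosomal RNA, and box H/ACA snoRNAs guide its pseudouridylation. In vertebrates most of them are cut out of the introns of host genes, and snoRNA host genes of the SNHG family keep only a spliced long noncoding RNA once the introns are gone. Many of these genes start transcription in a run of pyrimidines, as ribosomal protein genes do. Several of the spliced RNAs, *GAS5* among them, are known to be engaged by ribosomes and cleared by nonsense-mediated decay, so that they accumulate when translation is blocked.

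A sequence of 20 bases before and 20 bases from the start listed by RefSeq (GRCh38.p14) is shown for the called host genes with an entry, because a start in a pyrimidine tract is the best known shared feature of this family. The sequences run 5′ to 3′ on the strand of the gene. Capitals mark a C that lies within 3 bases of the listed start together with the C and T bases that follow it without a break, where at least 4 follow.
SNHG19 (chr16:2155339-2155378, minus strand): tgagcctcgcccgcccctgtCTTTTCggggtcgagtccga
EPB41L4A-AS1 (chr5:112160506-112160545, plus strand): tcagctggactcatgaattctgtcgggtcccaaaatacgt
ZFAS1 (chr20:49278622-49278661, plus strand): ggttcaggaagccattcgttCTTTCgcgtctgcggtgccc
GAS5 (chr1:173869026-173869065, minus strand): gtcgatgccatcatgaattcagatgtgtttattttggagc
SNHG12 (chr1:28581854-28581893, minus strand): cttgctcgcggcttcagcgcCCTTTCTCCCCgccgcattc
SNHG17 (chr20:38435309-38435348, minus strand): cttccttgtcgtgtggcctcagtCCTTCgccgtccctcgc
SNHG4 (chr5:139274081-139274120, plus strand): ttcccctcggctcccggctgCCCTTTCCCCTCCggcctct

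Such a tract was found at 10 of the 27 host genes with an entry (37.0%), against 13.1% of all 27305 entries, searched on the strand of the gene only. Host genes that were higher and host genes that were lower in *CDYL*-sh both carried it. It was present at *SNHG19* and *ZFAS1*, which were higher, and at *SNHG12*, *SNHG17* and *SNHG4*, which were lower. The windows of *GAS5* and *EPB41L4A-AS1* held no such run, which says nothing of other start sites of these genes. The *GAS5* window lies upstream of the GENCODE span given below for that gene, so it does not show the start of that gene model.

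The libraries held 27451007 and 22341852 counts in *CDYL*-sh, against 27688447 and 26981051 in control. *CDYL* itself stood at 11.4 and 9.70 CPM (counts scaled to library size with TMM factors) in *CDYL*-sh, against 50.4 and 53.0 CPM in control, and both *CDYL*-sh libraries lay far below both controls (log2 fold change -2.29 ± 0.13 SE, adjusted p = 4.26e-09, edgeR's quasi-likelihood test). Epithelial markers were abundant, with a summed level over 7 genes of 3416 and 3624 CPM in *CDYL*-sh, against 3636 and 3980 CPM in control. The 6 stromal markers summed to 8.25 to 9.21 CPM in *CDYL*-sh, against 13.7 to 17.3 CPM in control, with *COL3A1* and *DCN* at 0 counts in all 4 libraries. The 4 endothelial markers summed to 7.93 to 8.70 CPM in *CDYL*-sh, against 3.77 to 4.26 CPM in control. The 5 leukocyte markers summed to 18.7 to 21.5 CPM, against 8.79 to 12.8 CPM, mostly *CD68*, while *CD3E* was at 0 counts in all 4 libraries. The part of these markers in the results below was not tested.

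Silencing of *CDYL* went with changes of host genes in either direction. Of the 26 tested, 4 were higher (*SNHG19*, *EPB41L4A-AS1*, *ZFAS1* and *GAS5*), 4 were lower (*SNHG15*, *SNHG12*, *SNHG17* and *SNHG4*) and 18 stayed short of the threshold, an adjusted p under 0.05. Over all 16158 genes tested, 13.6% were called higher, 12.1% lower and 25.7% in either direction, and the host genes, at 15.4% in each direction, were near that background. Their median log2 fold change was 0.08, against 0.01 over all genes, and 15 were positive and 11 negative. The values ran between -0.77 and 0.74, so none changed by 2-fold, and 3 of the 8 called genes changed by over 1.5-fold. Both *CDYL*-sh libraries lay above both controls for 8 host genes and below both for 9 of the 26, where all genes gave 32.6% above and 31.8% below. In bulk RNA, fewer cells that express a gene and less RNA per cell cannot be told apart.

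**Figure D1:**
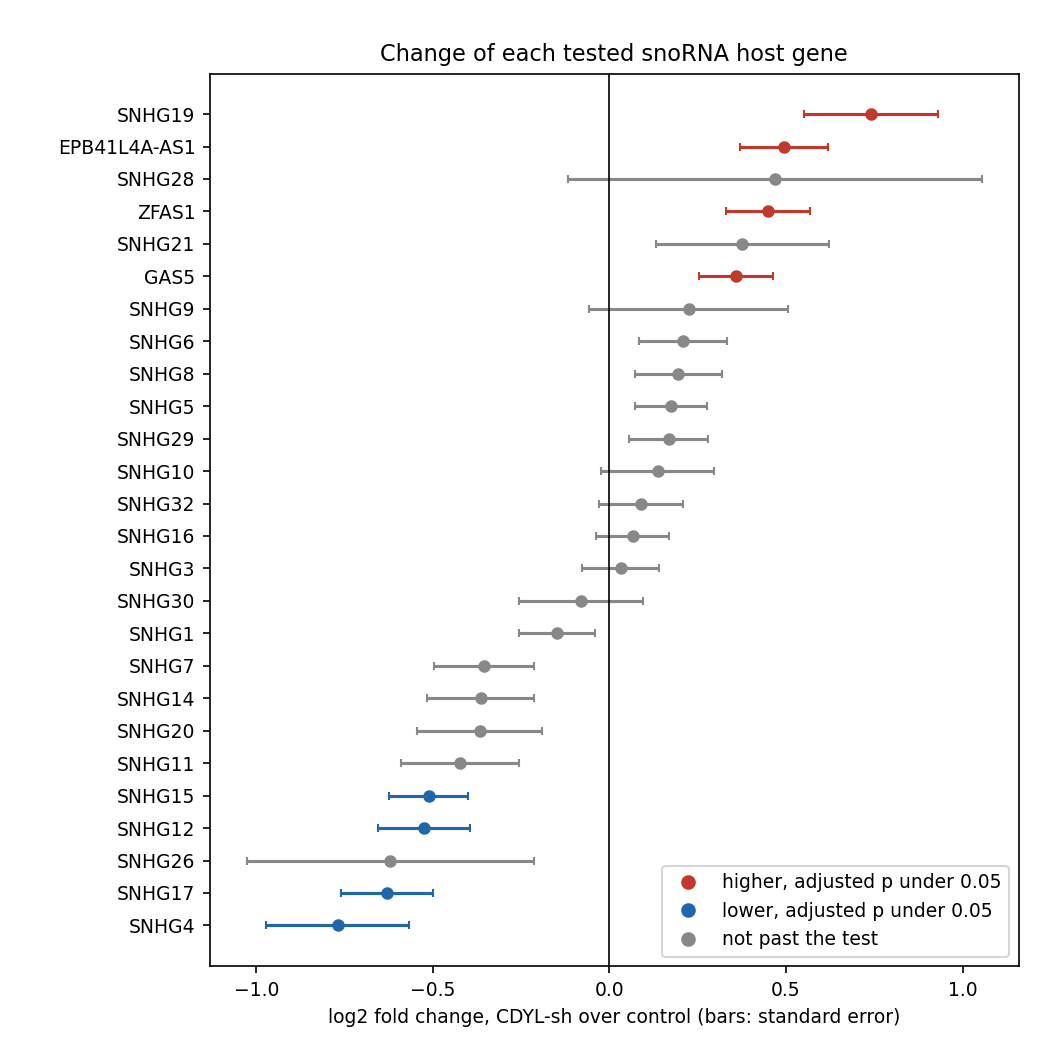
Log2 fold change of each of the 26 tested snoRNA host genes, CDYL-sh over control, with the standard error as a bar. Genes past the test are red (4 higher) or blue (4 lower) and the others grey, and the values run between -0.77 for SNHG4 and 0.74 for SNHG19.

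*SNHG19* had the largest positive change. This small gene of 2 exons (chromosome 16, 2154792 to 2155405, minus strand, GENCODE 44 on GRCh38) hosts *SNORD60*. It measured 8.68 and 10.6 CPM in *CDYL*-sh, against 5.74 and 5.73 CPM in control. The groups did not overlap, and the gene rose by 0.74 ± 0.19 SE on the log2 scale (adjusted p = 0.00775, edgeR's quasi-likelihood test). Without *CDYL*-sh library 2 the call was lost, with a log2 fold change of 0.60 and an adjusted p of 0.145 from edgeR, within 0.000341 to 0.145 over 16 alternatives.

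*EPB41L4A-AS1* (chromosome 5, 112160526 to 112164818, plus strand) hosts the box H/ACA snoRNA *SNORA13*. It measured 52.2 and 65.9 CPM in *CDYL*-sh, against 40.2 and 43.6 CPM in control. All *CDYL*-sh values were above the controls, although the *CDYL*-sh libraries were further apart than the controls were (log2 fold change 0.49 ± 0.13 SE, adjusted p = 0.00728 from edgeR). The gene runs antisense to *EPB41L4A*, with 2200 of its 4293 exon bases shared between the strands, and its counts were not whole, so reads had been divided. *EPB41L4A* moved the other way, with 406 and 250 counts in *CDYL*-sh, against 593 and 543 counts in control (log2 fold change -0.69 ± 0.15 SE). The study describes an orientation mode for the alignment but not whether the counting used strand, so the reads of this pair cannot be fully told apart. *EPB41L4A-AS1* did not pass without *CDYL*-sh library 2 (log2 fold change 0.32, adjusted p = 0.204, edgeR) or without control library 1 (0.43, adjusted p = 0.0662), within 1.20e-06 to 0.204 over the alternatives.

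*ZFAS1* (chromosome 20, 49278178 to 49299600, plus strand) hosts *SNORD12*, *SNORD12B* and *SNORD12C* and is named for its place antisense to the start of *ZNFX1*. It stood at 64.8 and 79.0 CPM in *CDYL*-sh, against 50.4 and 54.8 CPM in control, again without overlap (log2 fold change 0.45 ± 0.12 SE, adjusted p = 0.00962 from edgeR). *ZNFX1*, which shares 249 exon bases with it on the other strand, fell (log2 fold change -0.55 ± 0.15 SE, adjusted p = 0.0105, edgeR). Without *CDYL*-sh library 2 the log2 fold change of *ZFAS1* was 0.30 (adjusted p = 0.211, edgeR) and without control library 1 it was 0.38 (adjusted p = 0.0883), within 9.85e-07 to 0.211 over the alternatives.

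*GAS5* (chromosome 1, 173858559 to 173868882, minus strand) is named for its accumulation in growth-arrested cells. It has 12 exons in its canonical transcript, and its span holds 10 box C/D snoRNAs and *SNORA103*. It measured 232 and 247 CPM in *CDYL*-sh, against 177 and 197 CPM in control. The lowest *CDYL*-sh value was above the highest control (log2 fold change 0.36 ± 0.11 SE, adjusted p = 0.0176 from edgeR). The *GAS5* call was lost without *CDYL*-sh library 2 (0.32, adjusted p = 0.113, edgeR) and without control library 1 (0.27, adjusted p = 0.197), within 0.000621 to 0.197 over the alternatives. Its log2 fold change was 0.23 when GC content and length entered as offsets, and it still passed.

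Among the host genes that fell, *SNHG15* kept its call under each of the 16 alternatives. The gene (chromosome 7, 44983019 to 44986961, minus strand) hosts *SNORA9*, which touches its annotated exons. Apart from *SNORA9*, it shares no exon with another annotated gene. It measured 42.3 and 43.2 CPM in *CDYL*-sh, against 58.2 and 63.8 CPM in control, and the *CDYL*-sh libraries were close together and below both controls. It fell by 0.51 ± 0.11 SE on the log2 scale (adjusted p = 0.00269, edgeR's quasi-likelihood test), with log2 fold changes between -0.59 and -0.40 over the alternatives.

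*SNHG17* (chromosome 20, 38419638 to 38435409, minus strand) hosts *SNORA71A*, *SNORA71B*, *SNORA71C* and *SNORA71D*. It fell to 19.2 and 18.8 CPM in *CDYL*-sh, against 31.1 and 27.7 CPM in control (log2 fold change -0.63 ± 0.13 SE, adjusted p = 0.00178, edgeR). Apart from its snoRNA genes, it also shares no exon with another annotated gene. Of the 16 alternatives, it lost its call only in the limma fits on log2 FPKM (a level scaled for length and depth). Its adjusted p lay within 2.88e-07 to 0.0599 over the alternatives. Its neighbour *SNHG11* (38446343 to 38450940, plus strand) hosts *SNORA71E* and *SNORA60*. *SNHG11* stood at 8.86 and 10.7 CPM in *CDYL*-sh, against 12.9 and 13.3 CPM in control, but did not pass the test (log2 fold change -0.42 ± 0.17 SE, adjusted p = 0.0705, edgeR).

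*SNHG12* (chromosome 1, 28578538 to 28583132, minus strand) hosts *SNORA16A*, *SNORA44*, *SNORA61* and *SNORD99*. It measured 20.4 and 19.8 CPM in *CDYL*-sh, against 30.7 and 27.2 CPM in control, with no overlap (log2 fold change -0.53 ± 0.13 SE, adjusted p = 0.00618, edgeR). Without *CDYL*-sh library 2 it narrowly missed the threshold (-0.50, adjusted p = 0.0700, edgeR), within 0.000243 to 0.0700 over the alternatives. *SNHG3*, which lies close by on the plus strand and hosts *SNORA73A* and *SNORA73B*, measured 56.8 and 58.2 CPM in *CDYL*-sh, against 58.0 and 54.4 CPM in control (log2 fold change 0.03 ± 0.11 SE).

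*SNHG4* had the largest negative change and the lowest level in *CDYL*-sh of the called genes. The gene (chromosome 5, 139274102 to 139284899, plus strand) hosts *SNORA74A* and *SNORA74D*. It stood at 4.31 and 5.11 CPM in *CDYL*-sh, against 8.58 and 7.48 CPM in control, again without overlap (log2 fold change -0.77 ± 0.20 SE, adjusted p = 0.00916, edgeR). It shares 626 exon bases on the same strand with *MATR3*, a nuclear matrix protein gene (ENSG00000280987), and its counts were not whole, so reads had been divided between genes. That *MATR3* entry had 697 and 371 counts in *CDYL*-sh, against 285 and 355 counts in control, and rose (log2 fold change 0.83 ± 0.18 SE, adjusted p = 0.00291, edgeR). How the reads were divided could change both values. The *SNHG4* call was lost without *CDYL*-sh library 1 (-0.66, adjusted p = 0.0925, edgeR), within 6.36e-05 to 0.0925 over the alternatives.

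**Figure D2:**
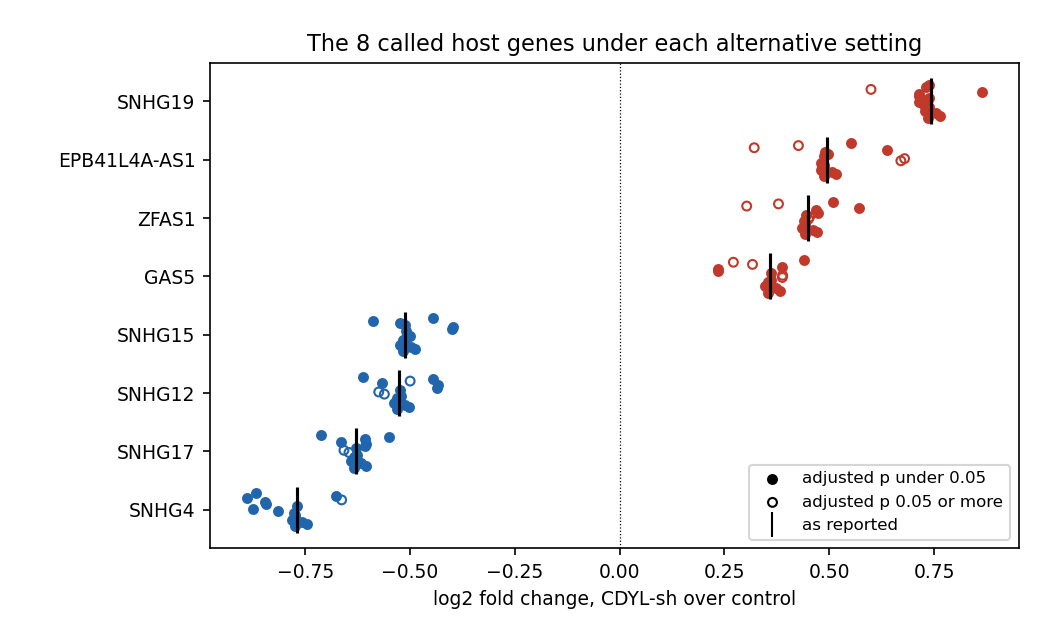
Log2 fold change of the 8 called host genes, CDYL-sh over control, under each of the 16 alternative settings (dots, filled where the adjusted p was under 0.05) and as reported (vertical marks). Each gene stayed on its own side of 0, and the dots of SNHG15 are all filled.

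The host genes with the highest mean FPKM were compared in that measure, which accounts for transcript length. In CPM the order differed, with *SNHG29* at 385 and 452 CPM in *CDYL*-sh, against 362 and 384 CPM in control. *SNHG5* stood at 135 and 142 CPM in *CDYL*-sh, against 121 and 125 CPM in control. *SNHG5*, host of *SNORD50A* and *SNORD50B*, measured 955 and 989 FPKM in *CDYL*-sh, against 822 and 831 FPKM in control. The groups did not overlap, yet the difference in counts did not pass (log2 fold change 0.17 ± 0.10 SE, adjusted p = 0.225, edgeR). *GAS5* followed with 756 and 786 FPKM in *CDYL*-sh, against 561 and 619 FPKM in control. *SNHG29*, host of *SNORD49A*, *SNORD49B* and *SNORD65*, measured 623 and 745 FPKM in *CDYL*-sh, against 587 and 613 FPKM in control (log2 fold change of the counts 0.17 ± 0.11 SE, not past the test). *SNHG29* alone held 26% and 28% of all host gene counts in *CDYL*-sh, against 26% and 27% in control.

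*SNHG6*, the host of *SNORD87*, measured 317 and 400 FPKM in *CDYL*-sh, against 260 and 310 FPKM in control, with a log2 fold change of the counts of 0.21 ± 0.12 SE. *SNHG8*, the host of *SNORA24*, measured 224 and 260 FPKM in *CDYL*-sh, against 176 and 167 FPKM in control, and *ZFAS1* measured 155 and 192 FPKM, against 118 and 135 FPKM. Neither *SNHG6* nor *SNHG8* passed the test on counts. Together the 31 host genes took 0.150% and 0.160% of all counts in *CDYL*-sh, against 0.142% in each control. The share was higher in both *CDYL*-sh libraries, and no test was run on it.

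**Figure D3:**
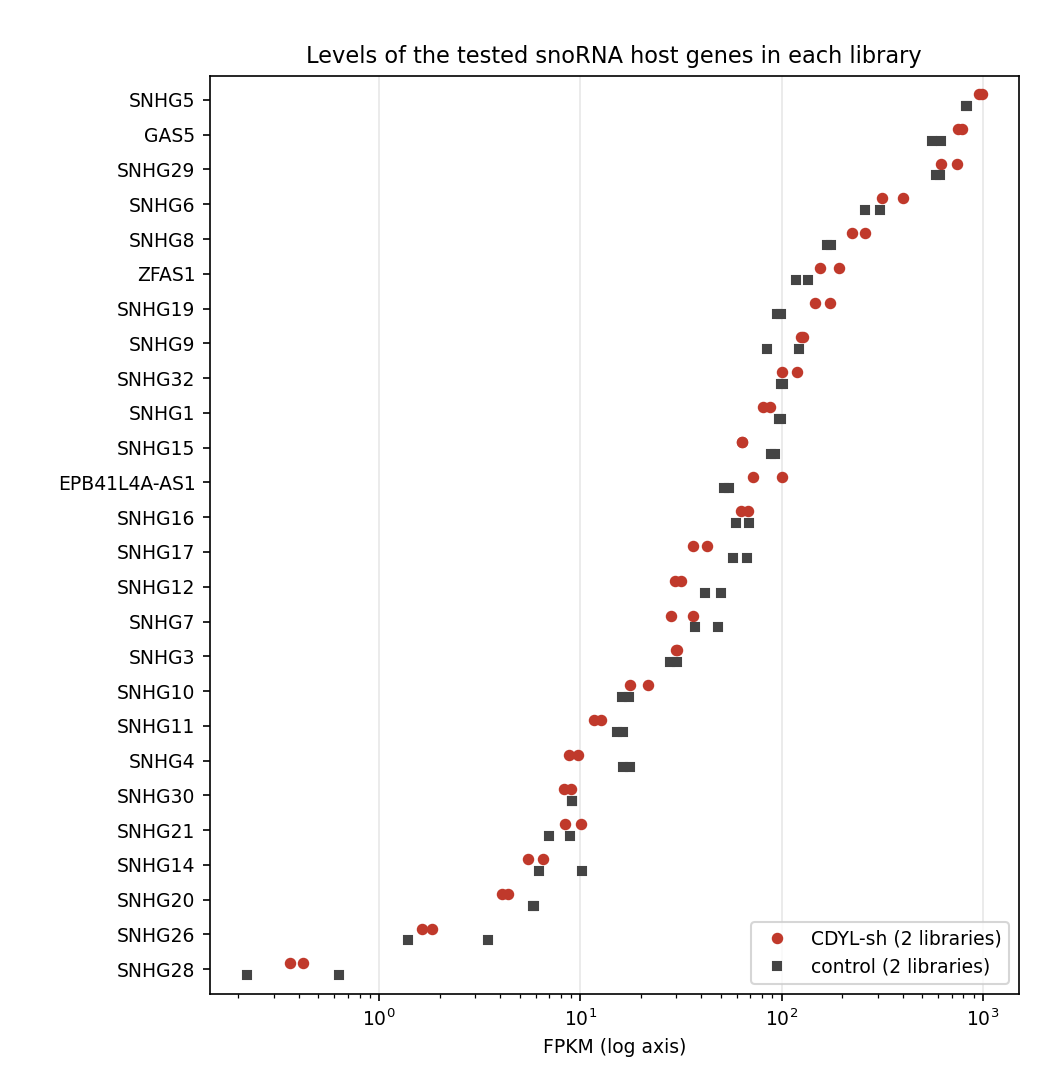
FPKM (log axis) of the 26 tested host genes in each library, with CDYL-sh as red circles above control as dark squares. The genes are ordered by mean FPKM, from 899 for SNHG5 to 0.41 for SNHG28, and the shift between groups is small beside this range.

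Counts and FPKM did not move alike for *SNHG8*. Its FPKM gave a log2 ratio of 0.49 between the group means, while its counts gave a log2 fold change of 0.20 ± 0.12 SE. The length that relates counts to FPKM, which the estimator sets from the isoforms it assigns, was 174 and 174 bases in *CDYL*-sh, against 209 and 215 bases in control. This log2 ratio of -0.29 stood at percentile 1.70 of 8421 genes with at least 5 FPKM in every library. *EPB41L4A-AS1* had implied lengths of 740 and 647 bases in *CDYL*-sh, against 782 and 786 bases in control, and a log2 ratio of 0.70 in FPKM, against 0.49 in counts. Of 23 host genes with such a level, 18 had a length ratio within 0.1 of 0 on the log2 scale, as did 77.7% of all genes. The short *SNHG9* had an implied length of 24.6 to 25.8 bases in all 4 libraries, so its FPKM of 84.3 to 127 rested on only 59 to 85 counts.

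The remaining tested host genes showed no change past the threshold. *SNHG7*, host of *SNORA17A* and *SNORA17B*, measured 20.3 and 17.4 CPM in *CDYL*-sh, against 26.4 and 21.9 CPM in control, and the groups were barely apart (log2 fold change -0.35 ± 0.14 SE, adjusted p = 0.0748, edgeR). *SNHG14*, the long imprinted host of the *SNORD115* and *SNORD116* clusters, had 27.7 and 21.6 CPM in *CDYL*-sh, against 36.2 and 27.4 CPM in control, and here the groups overlapped (log2 fold change -0.36 ± 0.15 SE, adjusted p = 0.0851, edgeR). It passed in 6 of the 16 alternatives, among them without *CDYL*-sh library 1 (-0.57, adjusted p = 0.0189, edgeR) and without control library 2 (-0.55, adjusted p = 0.000998), and *SNHG7* also passed without control library 2 (-0.48, adjusted p = 0.00606). *SNHG1*, whose span holds 8 box C/D snoRNAs, measured 61.8 and 58.4 CPM in *CDYL*-sh, against 68.2 and 65.2 CPM in control (log2 fold change -0.15 ± 0.11 SE). *SNHG16* measured 139 and 135 CPM in *CDYL*-sh, against 138 and 124 CPM in control, and its 2 groups overlapped (log2 fold change 0.07 ± 0.10 SE).

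The filter on low counts left out 5 host genes. *SNHG27* was at 0 counts in all 4 libraries, and *SNHG31*, *SNHG18*, *SNHG25* and *SNHG22* had at most 7 counts in any library. *SNHG28* was just inside the filter, with 22 and 8 counts in *CDYL*-sh, against 12.7 and 10 counts in control. *SNHG18* was just outside, with 3 and 6 counts in *CDYL*-sh, against 7 and 3 counts in control. At this depth no difference was detectable for either. Of the related host transcripts outside the family name, *DANCR* had 240 and 256 CPM in *CDYL*-sh, against 248 and 266 CPM in control, and did not pass, and *MEG8* was at 0 counts in all 4 libraries.

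The snoRNAs themselves were not measured by these libraries. GENCODE places 139 genes with a snoRNA or small Cajal body RNA symbol (SNORD, SNORA or SCARNA) within the host genes, on the same strand. All 139 had an entry, and 134 were at 0 counts in all 4 libraries, with at most 4 counts elsewhere. None of the 139 lies in *GAS5*, so its guests were not checked, and small RNA genes without such a symbol were not counted. RefSeq places 147 genes with such a symbol within 29 of the 31 host genes, 83 of them in *SNHG14*.

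A split by guest class was made after the values were seen and was therefore not tested. The 12 tested hosts with mainly box C/D snoRNAs had 3 genes higher and 0 lower in edgeR's test and in DESeq2, with a median log2 fold change of 0.13. At an unadjusted p under 0.05, edgeR gave 3 higher and 1 lower among them. The 10 hosts with mainly box H/ACA snoRNAs had 1 higher (*EPB41L4A-AS1*) and 4 lower, with a median of -0.39. Over all genes, 13.6% were higher and 12.1% lower, and nothing is read from counts this small in classes made after the calls were known. The ranges overlapped widely, between -0.62 for *SNHG26* and 0.74 for *SNHG19* among C/D hosts and between -0.77 and 0.49 among H/ACA hosts. The medians were 0.06 and -0.36 when GC content and length entered as offsets. Leaving out each library in turn gave 0.06 to 0.21 for C/D hosts and -0.42 to -0.33 for H/ACA hosts. Some or all calls among C/D hosts were lost without *CDYL*-sh library 2 or control library 1. Fewer genes were also called over all genes in these fits. A C/D host was called lower with those offsets, without *CDYL*-sh library 1 and without control library 2.

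**Figure D4:**
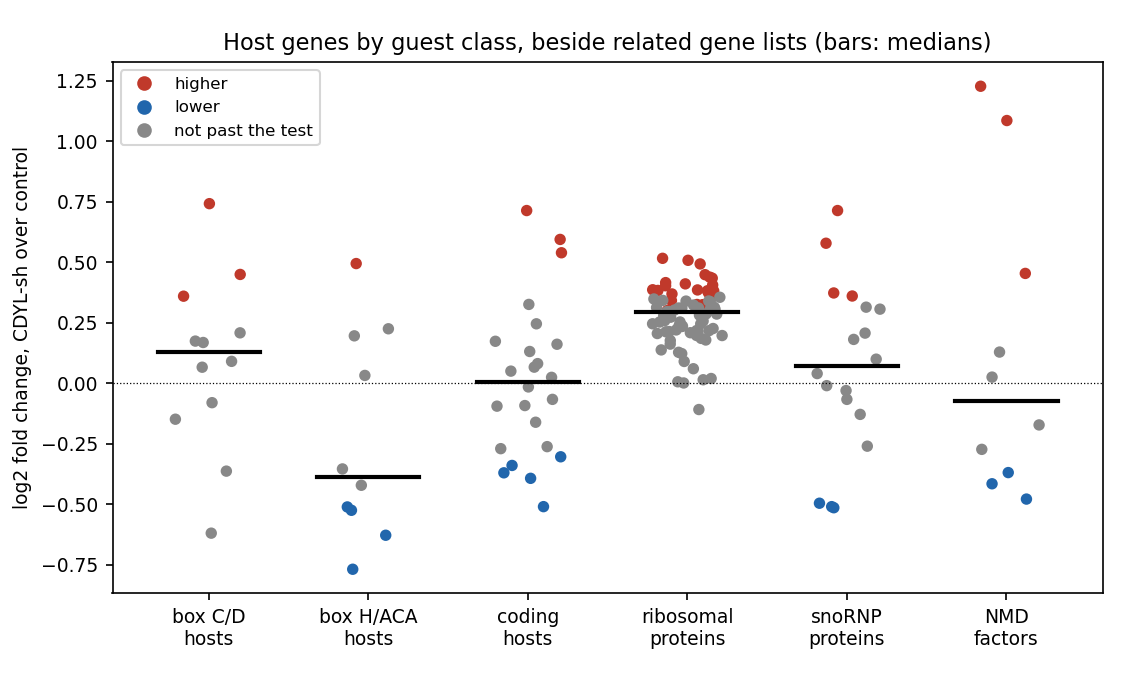
Log2 fold change, CDYL-sh over control, of host genes with mainly box C/D guests (12) or box H/ACA guests (10), of 24 protein-coding host genes, 79 ribosomal protein genes, 18 snoRNP proteins and 10 nonsense-mediated decay factors. Bars are medians, at 0.13 for C/D hosts, -0.39 for H/ACA hosts and 0.30 for ribosomal protein genes, and red and blue dots passed the test as higher or lower.

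Protein-coding snoRNA hosts had calls on each side, as all genes did (13.6% higher and 12.1% lower, which also holds beside the lists that follow). Of 24 outside the ribosomal protein family, 3 passed as higher and 5 as lower, with a median log2 fold change of 0.00. *NOP58* and *NOP56*, which encode partner proteins of the box C/D particle and themselves host snoRNAs, moved apart. *NOP58* stood at 53.3 and 54.2 CPM in *CDYL*-sh, against 37.3 and 28.2 CPM in control (log2 fold change 0.71 ± 0.13 SE, adjusted p = 0.000740, edgeR). *NOP56* stood at 230 and 184 CPM in *CDYL*-sh, against 308 and 282 CPM in control (log2 fold change -0.51 ± 0.12 SE, adjusted p = 0.00376, edgeR). The mitochondrial chaperone gene *HSPA9* and the importin gene *IPO7* rose by 0.54 ± 0.12 SE and 0.59 ± 0.14 SE on the log2 scale.

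Of 18 snoRNP proteins and assembly factors, 4 passed as higher and 3 as lower, with a median log2 fold change of 0.07. *FBL*, the methyltransferase of the C/D particle, measured 475 and 539 CPM in *CDYL*-sh, against 451 and 496 CPM in control. *DKC1*, the pseudouridine synthase of the H/ACA particle, measured 105 and 101 CPM in *CDYL*-sh, against 112 and 103 CPM in control. Neither enzyme passed the test. *NAF1*, an assembly factor of the H/ACA particle, fell to 24.7 and 23.2 CPM in *CDYL*-sh, against 35.0 and 33.6 CPM in control (log2 fold change -0.52 ± 0.12 SE, adjusted p = 0.00483, edgeR). *NHP2*, a core H/ACA protein, rose by 0.36 ± 0.12 SE.

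Ribosomal protein genes, which also start in pyrimidine tracts, shifted upwards by a small amount. Of 79, 22 rose, 0 fell and 57 did not pass in edgeR's quasi-likelihood test. At an unadjusted p under 0.05, 48 were higher and 0 lower, and DESeq2 called 32 higher and 0 lower. By limma on log2(FPKM + 1), which called fewer genes, 0 of 79 passed and 20 were higher and 0 lower at an unadjusted p under 0.05. The log2 fold change was positive for 78 and negative for *RPS4X* (-0.11 ± 0.11 SE), and the median was 0.30, or 0.19 with GC content and length as offsets. The count depended on single libraries. It was far lower without *CDYL*-sh library 2 or without control library 1 than without *CDYL*-sh library 1 or without control library 2. Each of these fits also called fewer genes over all genes than with all 4 libraries. The summed level was 99620 and 117676 CPM in *CDYL*-sh, against 83599 and 97481 CPM in control, so the second library of each group was the higher one. *GAS5*, *ZFAS1* and *EPB41L4A-AS1* had the same order of the 4 libraries in CPM and lost their calls without the same libraries. The order was not particular to called genes, as *SNHG5*, *SNHG8* and *SNHG29*, which did not pass, also had it. Whether the summed level of ribosomal protein genes plays a part in the values of these host genes was not tested.

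Factors that act on such transcripts also had calls on each side. Of 10 nonsense-mediated decay factors, 3 passed as higher and 3 as lower. *UPF2* had 36.5 and 37.1 CPM in *CDYL*-sh, against 17.6 and 13.8 CPM in control (log2 fold change 1.23 ± 0.14 SE, adjusted p = 9.58e-06, edgeR). Its partner *UPF3B* had 27.96 and 34.8 CPM in *CDYL*-sh, against 16.2 and 13.3 CPM in control (log2 fold change 1.09 ± 0.15 SE). The helicase gene *UPF1*, at the centre of the pathway, fell to 167 and 157 CPM in *CDYL*-sh, against 225 and 227 CPM in control (log2 fold change -0.48 ± 0.10 SE, adjusted p = 0.00214, edgeR).

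Of 9 regulators of the translation of mRNAs with a pyrimidine start, 2 passed as higher and 2 as lower. *LARP1*, which binds that start, fell to 309 and 274 CPM in *CDYL*-sh, against 518 and 470 CPM in control (log2 fold change -0.76 ± 0.11 SE, adjusted p = 8.90e-05, edgeR). *RPTOR*, the scaffold of an mTOR complex, fell by 0.59 ± 0.11 SE, and *EIF4EBP1*, an inhibitor of cap-dependent translation, rose by 0.41 ± 0.11 SE. Of 3 nuclear long noncoding RNAs (*MALAT1*, *NEAT1* and *KCNQ1OT1*), 0 passed in edgeR or DESeq2, and 0 had an unadjusted p under 0.05.

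Base composition moved with the calls over all genes. Under 40% GC, 26.1% of genes were higher and 4.04% lower, and between 50 and 55% GC, 7.05% were higher and 18.6% lower. Between 45 and 50% GC, 9.16% of all genes were higher and 13% lower, whereas 3 of the 10 host genes there were higher (*EPB41L4A-AS1*, *ZFAS1* and *GAS5*). Of the 6 host genes between 50 and 55% GC, 2 were lower. *SNHG19* at 55.6% GC rose and *SNHG4* at 43.2% GC fell. These 5 genes went against the direction that was more frequent among all genes of their bin. The other called genes, *SNHG15*, *SNHG12* and *SNHG17*, went with it. *SNHG17*, at 56.7% GC, fell in the bin of *SNHG19*, where 8.69% of all genes were higher and 17.5% lower. The part of base composition in these calls was not tested. With GC content and length as offsets, all 8 calls were kept and *SNHG1*, *SNHG11* and *SNHG20* were also lower, which gave 4 higher and 7 lower.

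**Figure D5:**
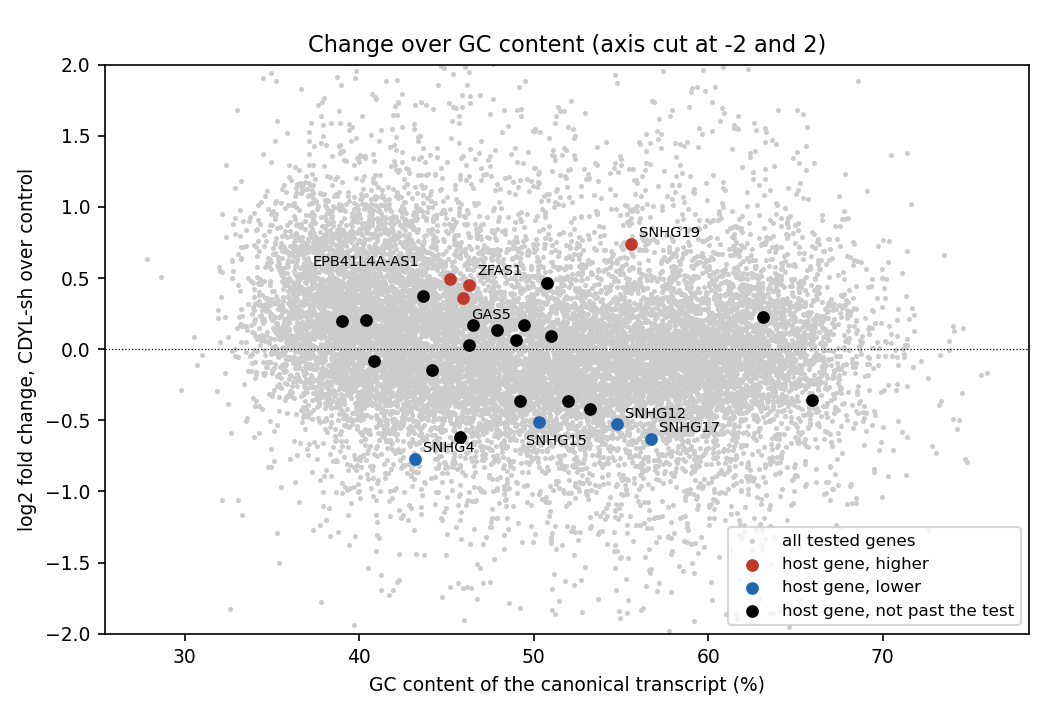
Log2 fold change, CDYL-sh over control, over the GC content of the canonical transcript (%), for all tested genes with an annotated transcript (grey) and for the 26 host genes (red higher, blue lower, black not past the test), with genes beyond the vertical axis not drawn. SNHG19 stands at 55.6% GC and 0.74, and SNHG4 at 43.2% GC and -0.77.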

How the data were processed

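RNA-seq was made from 4 Ishikawa libraries. The submitters' processing notes name TopHat, RSEM and edgeR with GRCh38.p10, and the study's methods describe an orientation mode for TopHat. The annotation release and whether the counting used strand are not given in the sources used here. The deposited table holds expected counts, estimated by the authors and often not whole, and FPKM, scaled by the authors for length and depth. Expected counts were rounded, filtered (filterByExpr, 16158 genes), TMM-normalized and tested with edgeR 4.0.16 (glmQLFit and glmQLFTest, prior count 0.125, R 4.3.3), with Benjamini-Hochberg adjustment over all genes tested and a threshold of 0.05. Counts were called whole within 0.005. Symbols matched 98.1% of identifiers. Positions came from GENCODE 44 (GRCh38). The script was tested on simulated data.

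The members and lists were chosen with earlier results of these data known. Values per library are given for called members and the 6 with the highest mean FPKM, and others were named after their values were seen. Alternatives were other normalizations and filters, DESeq2 1.42.0, limma 3.58.1 (voom, or log2 FPKM with a pseudocount of 1 or 0.1 and a mean FPKM of at least 0.5), a replicate block, GC and length offsets (mgcv 1.9.3), each library left out, and members without exon overlap. Where 1 library was left out, its remaining partner was taken to vary as the other group did. The result of 1 gene is not reported here.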

Additional observations from a re-analysis of the deposited data

How the results depend on the processing

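Each of the 8 called host genes kept its direction under all 16 alternatives, and all 8 kept their call under the other normalizations and filters, DESeq2, limma-voom, the replicate block and the offsets. With limma on log2(FPKM + 1) or log2(FPKM + 0.1), 1 host gene was higher and 2 were lower, and 3 of the 8 calls were kept. The kept calls were *SNHG19*, *SNHG15* and *SNHG4*. These fits called 224 genes higher and 237 lower with a pseudocount of 1, and 255 and 252 with 0.1, against 2201 and 1956. With the replicate block, 4 were higher and 6 lower, and the share of all genes called lower was 16.0%, against 12.1% without it. The library numbers share no stated culture or day. Over the genes tested, the deviations of library 1 of each group from the group mean had a correlation of 0.03. With 2 libraries per group, the deviations of library 2 only mirror these, so whether the numbers pair the samples remains unknown. With GC and length offsets, 4 of the 26 tested host genes were higher and 7 lower, and with the block and the offsets 4 and 9. Over all genes, 17.8% and 20.5% were lower in these fits, against 12.1% without block or offsets. The cause of the added lower calls was not tested. Fits with 1 library left out had a group of 1, so only their medians are given here. The median log2 fold change of the host genes was 0.03 without *CDYL*-sh library 1 and -0.007 without *CDYL*-sh library 2. It was 0.06 without control library 1 and 0.02 without control library 2. Some host gene calls were lost in these fits, and each of them also called fewer genes over all genes than with all 4 libraries. Of the tested members, 5 shared no exon with another gene, hosted snoRNA genes aside. Among these, 0 were higher and 2 lower by edgeR and by DESeq2 (0 and 3 at an unadjusted p under 0.05). Their median was -0.42, because only those members were counted. The cause of the other changes was not tested.

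The offsets changed the balance of all calls to 2481 higher and 2871 lower. Host genes with few counts were known least precisely. *SNHG28*, with 8 to 22 counts, had a standard error of 0.59.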
